A study of Mus musculus with 24 samples.

Results

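Insulin lowers blood glucose in fat and muscle by a short relay. The insulin receptor phosphorylates its substrate adaptors, the adaptors recruit phosphoinositide 3-kinase, and the lipid it makes activates the AKT kinases. AKT then phosphorylates TBC1D4, a brake on vesicle traffic, and vesicles carrying the transporter GLUT4 reach the cell surface, where glucose enters and a hexokinase traps it. Brite adipocytes, the heat-producing cells that arise within white fat, draw on this route for fuel and for building lipid.

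The genes of this relay were followed in cells depleted of the long noncoding RNA Ctcflos. They were 10 in number, listed by symbol: the receptor gene Insr, the adaptor genes Irs1 and Irs2, Pik3r1, Akt1, Akt2, Tbc1d4, the transporter genes Slc2a4 and Slc2a1, and Hk2. The table held 168326 transcript entries of 52089 symbols, of which 93 entries belonged to these 10 genes. Each gene was represented by its RefSeq messenger entry with the highest mean over the 24 libraries. Each of the 10 passed the filter of 10 reads in enough samples in every comparison, Irs2 at 72 h through its KD samples.

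The cells were primary preadipocytes from the stromal vascular fraction of inguinal white fat of 129SvEv mice, which the study's methods describe as male and 5 to 6 weeks old. They were induced for 2 days, kept in differentiation medium with rosiglitazone for 1 day, and reverse transfected with 50 nM of an LNA gapmer. A gapmer is an antisense oligonucleotide that directs the cleavage of its target RNA. KD cells received a gapmer against Ctcflos and NC cells a nontargeting gapmer, and both were harvested 24 h or 72 h later. There were 6 libraries for each of KD and NC at either time. All groups shared the medium, which contained insulin, triiodothyronine and rosiglitazone according to the study's methods. No group without insulin was analysed here, so the values describe transcript levels in the presence of the hormone and not a response to it. The study's legends call the samples behind its transcriptome values biological replicates. Whether they came from separate cultures or separate animals is not in the labels, and p-values measure the spread between these libraries.

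Expression was measured by 3′ end sequencing as RPKM, reads normalised to transcript length and to the mapped reads of the library. The levels below are RPKM after scaling of the libraries to each other. The depth of a library, recovered from the values, was 1391824 to 5926365 mapped reads (median 4009983). NC 72 h replicates 2 and 3 differed by less than the sampling noise (0.34 of it, against 2.0 for the next closest pair) and were counted as 1 sample, so that NC 72 h had n = 5. Apart from the groups, the libraries were divided by clustering of their deviations from the group means, a rule that always gives 2 sets. One set held 8 libraries, 2 from each group, and the other 16, and these sets are called the smaller and the larger cluster. Between libraries of different groups, the mean correlation of deviations was 0.09 within a cluster and -0.11 across clusters. The clusters were thus made from the same expression values. Ctcflos was low in both groups. Its entry NR_040321 was at 0 to 0.62 RPKM in KD 24 h against 0.18 to 1.4 in NC 24 h, and at 0 to 0.52 in KD 72 h against 0.89 to 1.7 in NC 72 h. Its entry ENSMUST00000144256, an isoform that the study names as a gapmer target, was at 0 to 0.96 (mean 0.24) in KD 24 h against 0.16 to 0.79 (mean 0.4) in NC 24 h, and at 0 to 0.49 (mean 0.12) in KD 72 h against 0.11 to 2.3 (mean 1.4) in NC 72 h. KD and NC overlapped for both entries at 24 h, where the highest value of the isoform was in a KD library, and at 72 h they were apart for NR_040321 alone. Which gapmer these libraries received is not in the labels. Adipocyte markers were high in all samples, with Fabp4 at 22600 to 46900 scaled RPKM and Adipoq at 768 to 2740. The skeletal muscle genes Myod1, Myog and Ckm were at 0 to 0.364, and the leukocyte marker Ptprc at 0 to 0.34. The summed level over all samples was 2.6 to 29.9 for 5 macrophage markers, 0.192 to 2.87 for 4 endothelial markers and 0.981 to 34.4 for 4 muscle markers, the last being almost wholly Acta1. Within the macrophage list Csf1r was higher in KD 72 h (3.17 to 8.12) than in NC 72 h (1.96 to 2.97), and Lyz2 was lower (0.217 to 3.9 against 4.9 to 26.3).

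The promoters of Tbc1d4, Akt1 and Pik3r1, 3 of the 4 genes that passed the test below, are shown for orientation, and that of Slc2a4 is not shown. They are given as the 250 bases before the transcription start (RefSeq, GRCm38.p6, the C57BL/6J reference and not the 129SvEv genome). The build used for the deposited table is not given in the sources used here. The genes were chosen for their calls. Tbc1d4 starts on the minus strand of chromosome 14 (chr14:101609192-101609441 for the bases shown). For Akt1 the start matching the measured entry was taken (chr12:112674277-112674526, minus strand). This stretch lies inside the annotated gene but touches no annotated exon. For Pik3r1 the start of the measured entry lies 75587 bases downstream of the most upstream start (chr13:101692631-101692880, minus strand). Reads came from 3′ ends and can enter several entries of a gene, so the start in use was not measured. Capitals mark GGGCGG, the GC box, and TATAAA, the TATA box, on either strand.
Tbc1d4: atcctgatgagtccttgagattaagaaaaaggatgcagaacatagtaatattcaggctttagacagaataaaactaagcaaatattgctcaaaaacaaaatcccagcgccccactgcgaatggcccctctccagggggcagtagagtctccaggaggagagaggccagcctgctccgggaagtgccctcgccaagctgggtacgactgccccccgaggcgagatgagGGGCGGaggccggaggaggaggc
Akt1: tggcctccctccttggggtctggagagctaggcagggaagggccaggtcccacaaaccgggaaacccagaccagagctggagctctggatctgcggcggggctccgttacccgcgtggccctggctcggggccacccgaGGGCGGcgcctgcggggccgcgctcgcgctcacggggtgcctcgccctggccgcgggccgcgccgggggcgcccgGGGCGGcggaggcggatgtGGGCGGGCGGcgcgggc
Pik3r1: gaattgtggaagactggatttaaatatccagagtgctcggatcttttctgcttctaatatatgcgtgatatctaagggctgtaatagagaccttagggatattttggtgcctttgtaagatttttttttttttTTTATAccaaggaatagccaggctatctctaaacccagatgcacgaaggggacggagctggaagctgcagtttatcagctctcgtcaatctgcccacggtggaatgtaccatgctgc

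No motif of those searched was common to the 3 stretches. The Akt1 stretch was 78.4% G and C and held 4 GC boxes, the last pair overlapping. The Tbc1d4 stretch was 54.8% G and C with 1 GC box, and the Pik3r1 stretch 42.4% with no GC box and 1 TATAAA on the opposite strand. Over all 32851 RefSeq promoters of this length outside chromosome 18, 32.7% held GGGCGG and 12.4% TATAAA. Of the other motifs searched on both strands, CACGTG, the E-box, was in 6.02%, its inner part ACGTG in 16.6% and TGTTTAC, the core bound by FOXO factors, in 3.17%. None of these other motifs was in the 3 stretches, whereas CACGTG was in those of Irs1 and Irs2. At the most upstream starts, which are not shown, the Akt1 stretch held 1 TGTTTAC and the Pik3r1 stretch 4 GC boxes. A match is a description of letters and not of a bound site.

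Among the 10 genes, the largest differences were in the transporter GLUT4 and its vesicle brake. Slc2a4, which encodes GLUT4, was at 33.1% of control at 24 h and 29.2% at 72 h, and Tbc1d4, which encodes its vesicle brake, was at 39.6% and 48.2%. Akt1 was higher than control at both times, by 1.49-fold and 1.34-fold. Pik3r1, which encodes the regulatory subunit of phosphoinositide 3-kinase, was at 66.4% of control at 24 h. Receptor, adaptors, Akt2, Slc2a1 and Hk2 did not pass the test at either time. At 24 h, 4 of the 10 genes passed it (1 higher and 3 lower), against 21.8% of all 53557 entries tested, with 10.4% higher and 11.5% lower. At 72 h, 3 passed (1 higher and 2 lower), against 22.0% of 54909 entries, with 10.2% higher and 11.8% lower. With 1 entry per gene the shares over all genes were 22.6% and 24.0%. The test was limma on log2 values with Benjamini-Hochberg adjustment over all entries, and an adjusted p under 0.05 made a call. The median log2 difference of the 10 genes was -0.36 at 24 h and -0.18 at 72 h, against -0.02 and 0.01 over all entries.

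**Figure D1:**
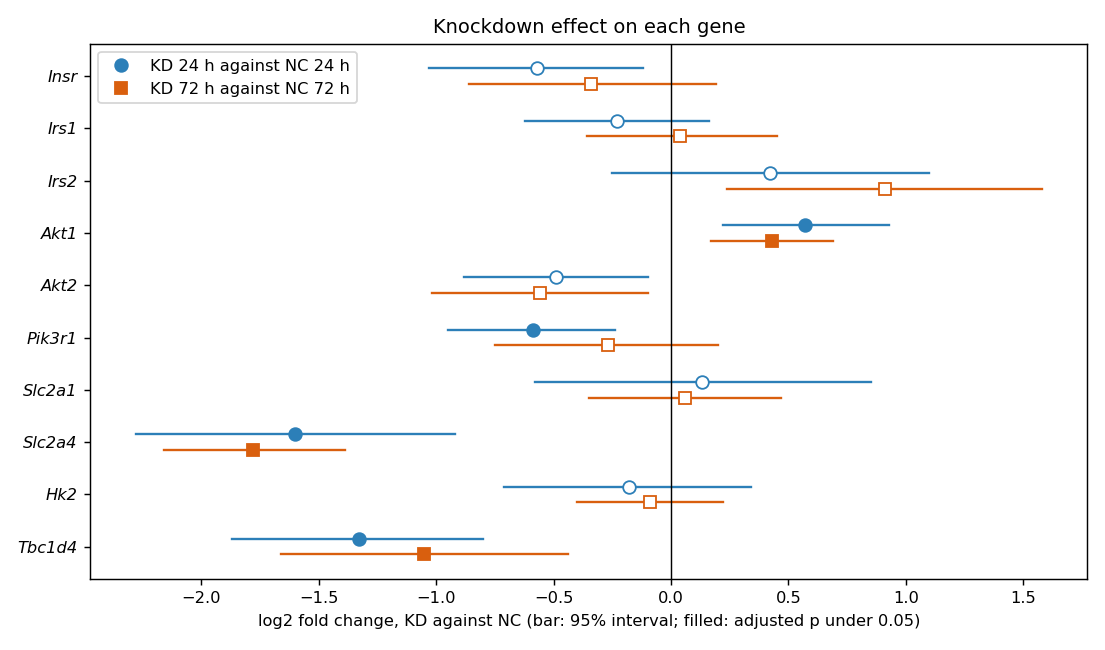
Log2 fold change of KD against NC for each of the 10 genes at 24 h (blue circles) and 72 h (orange squares), with 95% intervals. Filled symbols passed the test at an adjusted p under 0.05: Slc2a4 and Tbc1d4 lie to the left and Akt1 to the right of 0 at both times, and Pik3r1 is filled at 24 h alone.

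The receptor gene Insr had a lower mean in KD at both times, and neither difference passed the test. At 24 h its level was 0.993 to 2.04 scaled RPKM in KD (median 1.6) and 1.92 to 2.8 in NC (median 2.29). The groups overlapped only through KD 24 h replicate 6, at 2.04, and NC 24 h replicate 3, at 1.92. On the log2 scale the difference was -0.57 ± 0.21 (SE, adjusted p = 0.066). At 72 h, KD samples were at 1.25 to 1.83 and NC samples at 2.57, 2.89, 1.51, 2.44 and 1.32, and the log2 fold change was -0.34 ± 0.25 (adjusted p = 0.36). Control samples were thus split, with 2 of 5 inside the KD range. The 24 h difference passed the test without KD 24 h replicate 6 (adjusted p = 0.042) and with voom on recovered reads (-0.66, adjusted p = 0.011).

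Irs1 and Irs2 encode the adaptors that carry the signal from the receptor to phosphoinositide 3-kinase. Irs1 levels overlapped broadly, at 3.04 to 5.46 scaled RPKM in KD 24 h, 4.12 to 5.77 in NC 24 h, 3.28 to 4.86 in KD 72 h and 2.72 to 4.68 in NC 72 h. Its log2 fold change was -0.23 at 24 h, with a 95% interval of -0.62 to 0.16, and 0.04 at 72 h, with an interval of -0.36 to 0.45. Irs2 was near the limit of detection, with 5 to 24 reads per library. At 72 h it was at 0.836 to 1.37 scaled RPKM in KD (median 1.0) and at 0.46, 1.14, 0.332, 0.614 and 0.271 in NC. A single control sample, the merged replicates 2 and 3 at 1.14, lay within the KD range. The log2 fold change was 0.91 ± 0.31 (adjusted p = 0.051), and 1.17 without that sample (adjusted p = 0.014). Leaving out the only control within the KD range widens the difference by construction, so the latter value is no support for it. With voom on recovered reads the log2 fold change was 1.09 (adjusted p = 0.04). At 24 h the Irs2 value was 0.42 ± 0.32 (adjusted p = 0.35).

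Pik3r1 encodes the regulatory subunit that holds phosphoinositide 3-kinase stable and docks it on the adaptors. In KD 24 h it was at 3.05 to 4.06 scaled RPKM (median 3.21) and in NC 24 h at 4.03 to 6.08 (median 5.14). The ranges met only at KD replicate 6 and NC replicate 3, with 4.06 and 4.03. KD against NC came to -0.59 ± 0.17 on the log2 scale (adjusted p = 0.021). The deposited table holds several entries of the gene, and 4 of 7 tested passed at 24 h, with log2 fold changes of -1.1 to -0.42 over the 7. At 72 h, 0 of 7 passed and the entry measured here was at -0.27 ± 0.22 (adjusted p = 0.41), with KD samples at 2.54 to 4.58 and NC samples at 5.7, 4.52, 2.69, 4.64 and 4.78. The effects at 24 h and 72 h differed by 0.32 (95% interval -0.23 to 0.86, adjusted p = 0.68), so a difference between the times was not shown. The 24 h call was lost without NC 24 h replicate 4 (adjusted p = 0.052) and in the larger cluster alone (-0.55, adjusted p = 0.1).

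Akt1 and Akt2 encode kinases of 1 family, of which AKT2 is the one tied most closely to glucose uptake. Their values lay on opposite sides of control. Akt1 was at 27.4 to 50.9 scaled RPKM in KD 24 h (median 29.5) and at 18.0 to 25.9 in NC 24 h (median 21.5), and these groups did not overlap. KD 24 h replicate 1, at 50.9, stood above the other KD samples, which ended at 32.0. The log2 fold change was 0.57 ± 0.17 (adjusted p = 0.024), and 0.44 without that library (adjusted p = 0.043). In the larger cluster alone it was 0.79 (adjusted p = 0.016), and in the smaller one 0.13 (adjusted p = 0.66), at means of 28.0 in KD against 25.7 in NC (n = 2 each).

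At 72 h, Akt1 was at 24.9 to 33.8 in KD (median 28.6) and at 19.2, 18.6, 26.4, 21.9 and 21.3 in NC. All but 1 of the control samples lay below every KD sample. This was a difference of 0.43 ± 0.12 on the log2 scale (adjusted p = 0.022), and all 3 tested entries of the gene passed at both times. The 24 h call was lost without NC replicate 1, 2 or 4 (adjusted p = 0.058, 0.055 and 0.057), and the 72 h call without NC replicate 1 (0.056) or without NC replicates 2 and 3 (0.057).

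Akt2 was at 4.06 to 6.78 scaled RPKM in KD 24 h and 5.64 to 9.17 in NC 24 h. At 72 h it was at 4.52 to 6.24 in KD and at 8.23, 7.17, 6.11, 5.6 and 13.7 in NC, the last being replicate 6. Its log2 fold change was -0.49 ± 0.18 (adjusted p = 0.067) and -0.56 ± 0.21 (adjusted p = 0.076). Both values missed the threshold, and 2 of 11 tested entries passed at 24 h and 1 of 11 at 72 h. The 24 h value passed without KD 24 h replicate 1 (-0.58, adjusted p = 0.044) and with voom, where its adjusted p rounds to 0.05, and over the libraries left out it ranged to -0.41 (adjusted p = 0.14). The 72 h value passed without NC 72 h replicate 5 (-0.67, adjusted p = 0.048), with the cluster as a covariate (-0.58, adjusted p = 0.047) and in the larger cluster alone (-0.82, adjusted p = 0.036). It was smaller without NC 72 h replicate 6 (-0.36, adjusted p = 0.17), without scaling (-0.31, adjusted p = 0.29) and in the smaller cluster alone (-0.17, adjusted p = 0.75). The ratio of Akt1 to Akt2 within a sample, chosen after the values were seen and given with no test, was 5.78 to 7.51 in KD 24 h and 2.03 to 4.08 in NC 24 h. It was 3.99 to 6.62 in KD 72 h and 1.56 to 4.31 in NC 72 h. The groups were apart at 24 h and overlapped at 72 h.

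Tbc1d4 encodes AS160, the GTPase-activating protein that keeps GLUT4 vesicles inside the cell until AKT phosphorylates it. In KD 24 h it was at 0.397 to 1.14 scaled RPKM (median 0.696) and in NC 24 h at 1.52 to 2.18 (median 2.0). Every KD sample lay below every control sample, at 4 to 31 reads against 38 to 76. On the log2 scale KD differed from NC by -1.33 ± 0.25 (adjusted p = 0.0028), and all 8 tested entries passed. At 72 h, KD samples were at 0.649 to 1.49 (median 0.952) and NC samples at 3.06, 2.31, 1.41, 2.09 and 2.05. The groups overlapped through the smaller cluster, where 2 KD samples were at 1.44 and 1.49 and 2 control samples at 1.41 and 2.09. The 72 h difference was -1.05 ± 0.28 on the log2 scale (adjusted p = 0.017), and 9 of 14 tested entries passed. Within the smaller cluster it was -0.21 (adjusted p = 0.81), and on the deposited scale without scaling -0.82 (adjusted p = 0.056).

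Slc2a4 encodes GLUT4, the transporter that insulin brings to the surface of fat and muscle cells. It had the largest change among the 10 genes at both times. In KD 24 h it was at 2.1 to 8.87 scaled RPKM (median 6.64), and in NC 24 h at 10.5 to 25.4 (median 20.4). In KD 72 h it was at 4.31 to 6.92 (median 5.19), and in NC 72 h at 25.4, 20.6, 14.7, 15.0 and 20.6. All KD samples lay below all control samples at both times. The log2 fold change was -1.6 ± 0.32 at 24 h (adjusted p = 0.0037) and -1.78 ± 0.18 at 72 h (adjusted p = 2.1e-05), and all 5 tested entries passed at both times. The effects differed by -0.18 (95% interval -0.99 to 0.63, adjusted p = 0.9).

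Control samples of the smaller cluster held less Slc2a4 than those of the larger one, at 10.5 and 13.3 against 19.7 to 25.4 at 24 h. Within that cluster the 24 h value was -0.6 (adjusted p = 0.21). The summed level of 6 adipocyte markers, almost wholly Fabp4, had a lower mean in KD at both times. It was 34200 to 48000 scaled RPKM (mean 42000) in KD 24 h and 46800 to 49700 (mean 47800) in NC 24 h. At 72 h it was 23500 to 32200 (mean 26500) in KD and 33800 to 45000 (mean 39900) in NC. KD 24 h and NC 72 h differ in both knockdown and time. The mean of the sum was higher in KD 24 h, where the mean of Slc2a4 was 6.46 against 19.3. Among the markers in the sum, Fabp4 (40000 against 37700) and Plin1 (18.9 against 16.5) also had higher means in KD 24 h. Adipoq (1850 against 1950), Pparg (83.1 against 109), Cebpa (10.4 against 12.7) and Lipe (18.2 against 24.3) had lower means there, as Slc2a4 did. The summed level of 3 brite markers was 81.6 to 180.0 in KD 24 h and 173.0 to 364.0 in NC 24 h. At 72 h it was 195.0 to 377.0 in KD and 777.0 to 1180.0 in NC. The sum of 4 preadipocyte markers was almost wholly Ly6a and overlapped between KD and NC, at 372.0 to 767.0 and 404.0 to 991.0 at 24 h and 643.0 to 820.0 and 341.0 to 974.0 at 72 h. Of the other preadipocyte markers, Pdgfra and Dlk1 overlapped at both times, and Cd34 did so at 24 h but was at 1.06 to 2.7 in KD 72 h against 0.15 to 0.735 in NC 72 h. Of the 4 skeletal muscle markers, Myod1 was at 0 in all samples and Myog and Ckm at 0.364 or less. Acta1 was at 4.82 to 18.1 in KD 24 h, 6.48 to 34.1 in NC 24 h, 0.981 to 7.37 in KD 72 h (mean 3.21) and 4.39 to 20.8 in NC 72 h (mean 10.6). The part of these markers in the result was not tested. In bulk RNA, fewer cells of a type and less RNA per cell cannot be told apart.

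Slc2a1 encodes GLUT1, the transporter of basal glucose uptake. Its knockdown effect was 0.13 at 24 h (95% interval -0.58 to 0.85) and 0.06 at 72 h (-0.35 to 0.47) on the log2 scale. At 24 h the samples divided by cluster. KD samples were at 23.6 to 31.8 scaled RPKM in the larger cluster and at 8.38 and 9.41 in the smaller, and NC samples at 18.4 to 21.9 and at 10.6 and 11.8. At 72 h, KD samples were at 24.2 to 30.0 and NC samples at 37.7, 34.2, 16.3, 19.6 and 29.3. KD values thus lay within the control range.

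The ratio of Slc2a1 to Slc2a4 within a sample, chosen after the values were seen and given with no test, was 0.795 to 1.12 in NC 24 h and 1.06 to 13.9 in KD 24 h. It was 1.1 to 1.66 in NC 72 h and 4.16 to 6.95 in KD 72 h. The groups touched at 24 h through the smaller cluster and were apart at 72 h. The highest ratio, in KD 24 h replicate 6, rests on 9 Slc2a4 reads in the shallowest library.

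**Figure D2:**
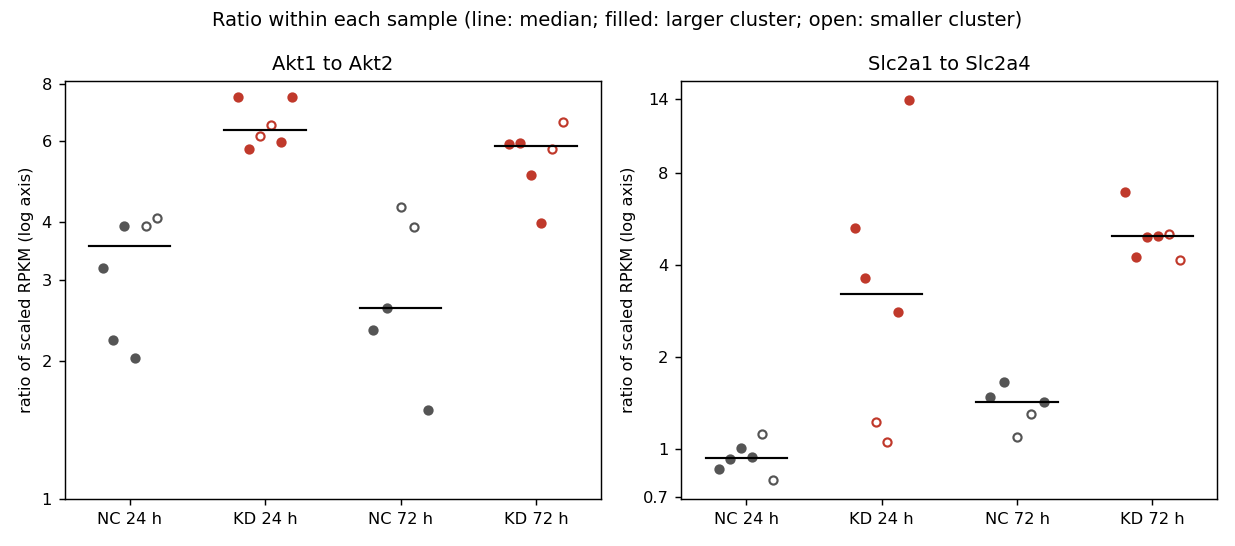
Ratio of Akt1 to Akt2 (left) and of Slc2a1 to Slc2a4 (right) in every sample, on log axes, with the median of each group as a line and open symbols for the smaller cluster. Akt1 to Akt2 is 5.78 or more in all KD 24 h samples and 4.08 or less in all NC 24 h samples, and Slc2a1 to Slc2a4 is 4.16 or more in all KD 72 h samples and 1.66 or less in all NC 72 h samples.

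Hk2 encodes hexokinase 2, which traps glucose by phosphorylation. It was the most abundant of the 10 genes in NC, with means of 31.6 ± 9.69 scaled RPKM (SD, n = 6) at 24 h and 32.2 ± 6.24 (n = 5) at 72 h. KD means were 27.8 ± 8.84 and 30.1 ± 4.49 (n = 6 each). The log2 fold change was -0.18 (95% interval -0.71 to 0.34) and -0.09 (-0.4 to 0.22), and 0 of 6 tested entries passed at either time. As for Slc2a1, smaller cluster samples were lower, at 18.1 to 19.3 in both groups at 24 h.

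In the order of levels per length in NC 24 h, Hk2 was followed by Akt1 (mean 21.8), Slc2a4 (18.9) and Slc2a1 (17.7), whose ranges overlapped from neighbour to neighbour. A gap separated Slc2a1 from Akt2 (7.04), Pik3r1 (5.13) and Irs1 (4.94), and another gap these from Insr (2.35) and Tbc1d4 (1.94), with Irs2 (0.69) apart below them. In KD 72 h, Slc2a4 (mean 5.52) was below the upper group and overlapped with Akt2 (5.27), while the ranges of Hk2 (30.1), Akt1 (28.9) and Slc2a1 (27.3) overlapped in turn. Reads came from 3′ ends and were divided by the full transcript length, so that levels of long transcripts such as Insr (9355 bases) and Irs1 (9159 bases) are lowered against those of Slc2a1 (2573 bases) or Akt1 (2640 bases).

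**Figure D3:**
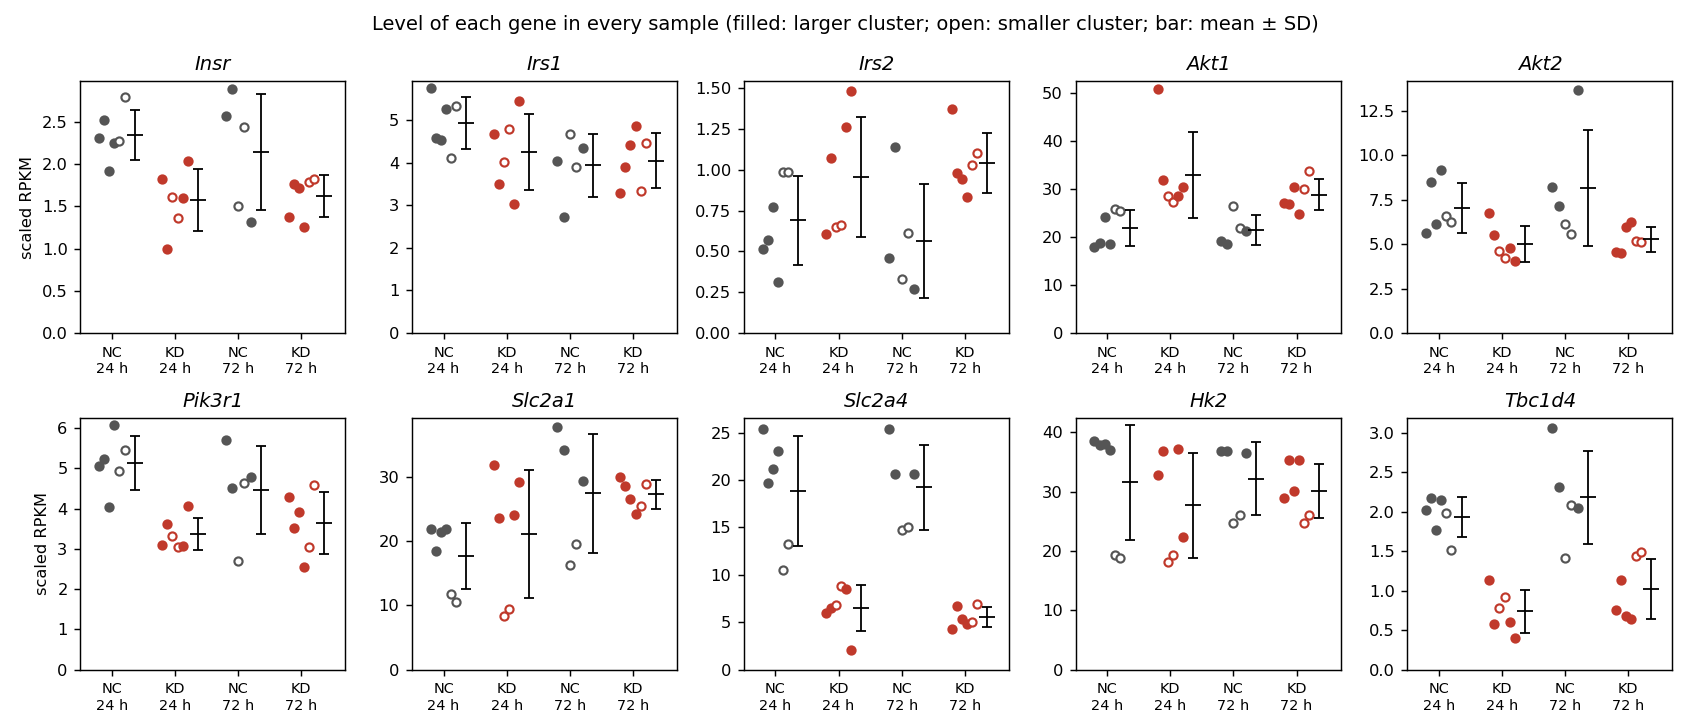
Scaled RPKM of the 10 genes in every sample of NC (grey) and KD (red) at 24 h and 72 h, on linear axes from 0, with mean and SD beside each group and open symbols for libraries of the smaller cluster. Slc2a4 is below all controls in every KD sample at both times, whereas for Slc2a1 and Hk2 the open symbols lie lowest within most groups.

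Between the control groups, 0 of the 10 genes passed the test from 24 h to 72 h, against 8.81% of 54352 entries, and 1 had an unadjusted p under 0.05. This was Slc2a1, at 0.61 ± 0.25 on the log2 scale (adjusted p = 0.16). It passed with the cluster as a covariate (0.67, adjusted p = 0.00043) and in the larger cluster alone (0.68, adjusted p = 0.0065). In NC the log2 change over time was 0.06 for Slc2a4 (95% interval -0.43 to 0.54) and 0.13 for Tbc1d4 (-0.34 to 0.6). In the interaction of knockdown and time, 0 of the 10 genes passed, against 0.204% of 60838 entries, and 0 had an unadjusted p under 0.05. Run on recovered reads with voom, both counts were 0 as well.

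The wider pathway was followed in 5 lists, of which not all genes were abundant enough to be tested. Of the signal transduction list, 28 of 33 genes were tested. At 24 h, 2 were higher and 6 lower in KD, and at 72 h 1 and 5, with median log2 changes of -0.41 and -0.14. In either direction these were 28.6% and 21.4% of the list, beside 21.8% and 22.0% of all entries. Mapkap1, which encodes a subunit of the TORC2 complex that phosphorylates AKT, fell at both times, with log2 fold changes of -1.78 ± 0.28 (adjusted p = 0.001) and -1.33 ± 0.23 (adjusted p = 0.0012). Eif4ebp1, which encodes a translational repressor under TORC1, changed by -0.52 ± 0.1 and -0.54 ± 0.09 (adjusted p = 0.0035 and 0.00091). Igf1r, the gene of the related growth factor receptor, was also lower at both times (-0.89 and -1.29, adjusted p = 0.028 and 0.01), as was Pik3cb, a catalytic subunit of phosphoinositide 3-kinase (-1.22 and -1.06, adjusted p = 0.0078 and 0.036). Igf1r and Pik3cb were named after their values were seen.

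At 24 h the adaptor gene Grb2 rose by 0.63 ± 0.18 (adjusted p = 0.024) and Rps6kb1, the gene of the S6 kinase, by 0.45 ± 0.15 (adjusted p = 0.043). At 72 h, Pik3r3, which encodes another regulatory subunit, was higher in KD by 1.85 ± 0.37 (adjusted p = 0.0028), at means of 1.22 ± 0.262 against 0.318 ± 0.258 scaled RPKM (SD, n = 6 and 5). The same control samples entered the comparison of NC 72 h with NC 24 h, where Pik3r3 was lower, at -1.45 ± 0.41 (adjusted p = 0.042). Its interaction was 2.32 ± 0.57 and missed the threshold (adjusted p = 0.094).

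Of 14 negative regulators, 9 were tested at 24 h and 10 at 72 h, and a single gene passed. Grb10, an adaptor that inhibits the receptor, was lower, at -0.85 ± 0.16 and -0.66 ± 0.13 (adjusted p = 0.0025 and 0.0028). Of the vesicle traffic list, 20 of 21 genes were tested, and the remaining symbol was an alternative name. At 24 h, Rab14 (0.47 ± 0.13) and Rab13 (0.72 ± 0.23), small GTPases of transport vesicles, were higher, and Ralgapa2 (-0.96 ± 0.23), which encodes a subunit of the GTPase-activating complex for RAL, and Rab8a (-0.51 ± 0.17) were lower. At 72 h Ralgapa2 alone passed, at -1.13 ± 0.33 (adjusted p = 0.025). Called in either direction were 4 of 20 at 24 h and 1 of 20 at 72 h, against the same 21.8% and 22.0% of all entries, and the list median was -0.09 and -0.07.

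The glucose and glycogen list had 22 of 28 genes tested at 24 h, with 0 higher and 7 lower, and 23 at 72 h, with 1 higher and 7 lower. The lower genes were 31.8% and 30.4% of the list, beside 11.5% and 11.8% of all entries, and the list median was -0.23 and -0.29. In either direction 31.8% and 34.8% of the list were called, beside 21.8% and 22.0% of all entries. The list held 5 genes of glycogen synthesis, grouped here after their values were seen, of which 4 were lower at both times and Gys1, the glycogen synthase gene, was at 0.09 and -0.19 (adjusted p = 0.85 and 0.36). Gbe1, the glycogen branching enzyme, fell from 23.4 ± 7.86 to 7.98 ± 4.02 scaled RPKM at 24 h and from 29.6 ± 9.13 to 5.36 ± 1.12 at 72 h, with log2 fold changes of -1.59 ± 0.29 and -2.41 ± 0.22 (adjusted p = 0.0025 and 9e-06). Ugp2, which makes the glucose donor UDP-glucose, changed by -0.75 and -0.78 (adjusted p = 0.0075 and 0.0015). Ppp1r3c, which targets protein phosphatase to glycogen, changed by -1.36 and -1.58 (adjusted p = 0.038 and 0.00029), and Gyg, the glycogen primer, by -0.57 and -0.56 (adjusted p = 0.022 and 0.003), the last being named after its values were seen. In glycolysis, Pfkfb1 changed by -1.25 ± 0.34 and -1.13 ± 0.2 (adjusted p = 0.019 and 0.0012). Hk1, the gene of another hexokinase, was higher at 72 h by 0.87 ± 0.27 (adjusted p = 0.036). Within the smaller cluster the list had 2 lower at 24 h, and 2 higher and 2 lower at 72 h.

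All 9 lipid targets of insulin action were tested, with 3 lower at 24 h, 7 lower at 72 h and 0 higher. These were 33.3% and 77.8% of the list, beside the 11.5% and 11.8% of all entries that were lower. In either direction 21.8% and 22.0% of all entries were called. Acaca, which makes malonyl-CoA for fatty acid synthesis, had the largest changes, at -1.97 ± 0.18 and -2.19 ± 0.22 (adjusted p = 3.3e-05 and 2.1e-05). Pde3b, the phosphodiesterase through which insulin restrains lipolysis, was at -0.63 and -0.67 (adjusted p = 0.013 and 0.0031), and Lipe, the hormone-sensitive lipase gene, at -0.42 at 24 h (adjusted p = 0.04). Fasn and Scd1, enzymes of fatty acid synthesis and desaturation, were lower at 72 h, at -0.96 ± 0.18 and -1.02 ± 0.17 (adjusted p = 0.0017 and 0.00097). Over the same interval both rose in the controls, by 0.66 ± 0.19 and 0.79 ± 0.2 (adjusted p = 0.041 and 0.026), and these comparisons share the NC 72 h samples. The list median was -0.31 at 24 h and -0.71 at 72 h, against -0.02 and 0.01 over all entries. In the interaction, 0 genes of the 5 lists passed. Under alternatives, 3 lipid targets were lower in it in the larger cluster alone and 1 with the cluster as a covariate, 1 traffic gene was lower in the smaller cluster alone, and 1 signal transduction gene was higher without scaling.

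Libraries of the larger and the smaller cluster gave unlike counts. In the larger cluster alone, 4 signal transduction genes, 7 glucose and glycogen genes and 4 lipid targets were lower at 24 h, and 5, 12 and 9 at 72 h, where 12.7% and 12.8% of all entries were lower (24.7% and 24.2% called in either direction). In the smaller cluster alone, with 2 samples a group, the counts were 0, 2 and 1 at 24 h and 1, 2 and 2 at 72 h, where 1.17% and 6.75% of all entries were lower (2.17% and 10.2% in either direction). The share of all entries called thus differed between the clusters as well.

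Over time in NC, 8.81% of all 54352 entries passed in either direction. Tested in the lists were 29 signal transduction genes, 10 negative regulators, 20 traffic genes, 22 glucose and glycogen genes and 9 lipid targets. Higher at 72 h were 3 lipid targets, among them Acaca (0.53 ± 0.14, adjusted p = 0.032), 2 glycolytic genes, Aldoc (1.76 ± 0.35, adjusted p = 0.0055) and Pkm (0.64 ± 0.16, adjusted p = 0.018), the negative regulator Trib3 (0.88 ± 0.14, adjusted p = 0.001) and the clathrin gene Cltc (0.3 ± 0.08, adjusted p = 0.033). Lower were Pik3r3 and Eif4ebp1 (-0.25 ± 0.06, adjusted p = 0.024). With the cluster as a covariate, 8 of the 22 glucose and glycogen genes were higher and 1 lower. In that fit 7186 of the 54352 entries passed in either direction.

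**Figure D4:**
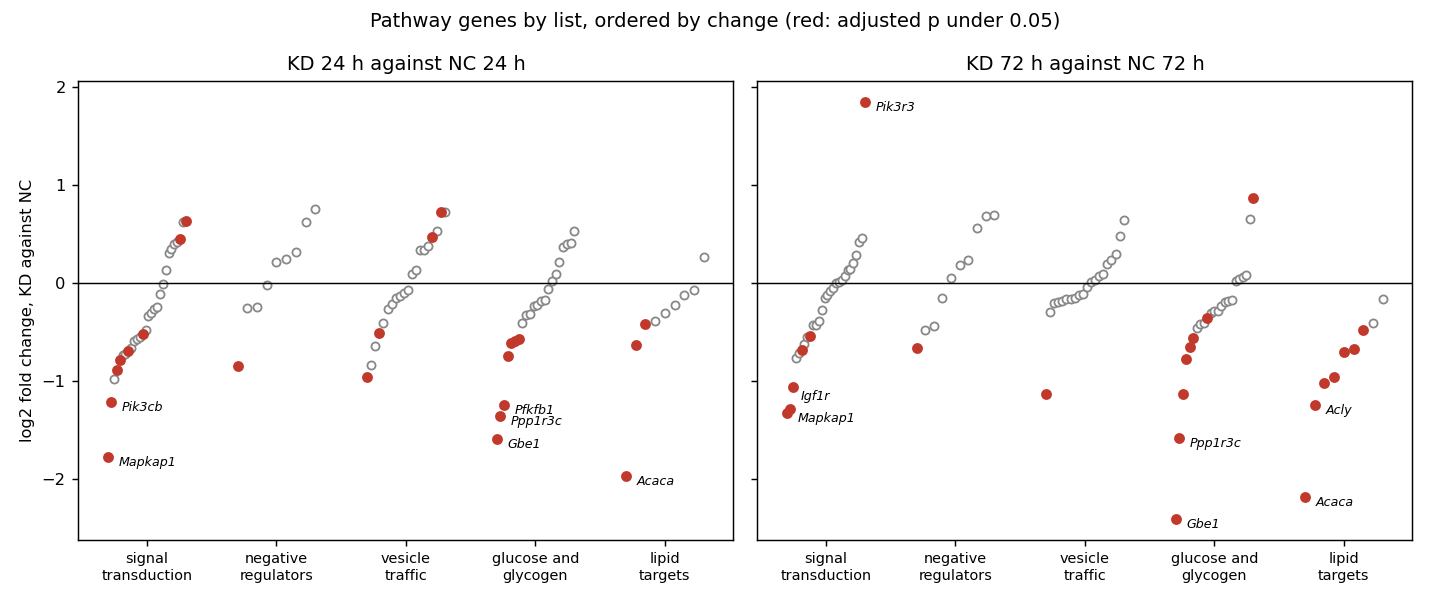
Log2 fold change of KD against NC for the tested genes of the 5 pathway lists at 24 h (left) and 72 h (right), ordered by change within a list, with red for an adjusted p under 0.05. In the glucose and glycogen list 7 genes are red below 0 at each time, and of the 9 lipid targets 3 are red at 24 h and 7 at 72 h.

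On the deposited scale, without scaling between libraries, the median log2 change of all entries at 72 h was 0.25 in place of 0.01, and 81% of calls were higher in KD in place of 46.3%. At 24 h the median was 0.04 in place of -0.02 and the share 54% in place of 47.5%. Beside the list counts below, 11738 of all 53557 entries were called in either direction at 24 h on that scale. At 72 h they were 16290 of 54909, most of them higher. Of the genes above, Slc2a4 and Akt1 kept their calls at both times on that scale, and the vesicle traffic list at 72 h changed to 3 higher and 0 lower. The glucose and glycogen list then had 0 higher and 4 lower at 24 h, and 2 higher and 6 lower at 72 h. Of the lipid targets, 2 were lower at 24 h and 5 at 72 h. In the signal transduction list 5 were lower at 24 h and 3 at 72 h, with 2 higher at each time.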

How the data were processed

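The deposited table held RPKM for transcript entries of RefSeq, Ensembl and GenBank in 24 libraries. According to the study's methods, the authors prepared bulk RNA barcoding (BRB-seq) libraries and aligned reads to RefSeq in the Genomatix suite. Version, genome build, filters and strand handling are not given in the sources used here, so that overlapping or antisense genes can share reads (Irs1, Irs2, Insr, Slc2a1 and Hk2 have opposite-strand neighbours in GENCODE M21). A read can enter several entries of a gene. RPKM are not counts, so that the main test was made on the log2 scale and a model of recovered reads (voom) served as an alternative.

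Read numbers were recovered from the steps between RPKM values (95.1% to 95.7% of low values were whole within 0.1 reads). In NC 72 h replicate 6 few recovered numbers were odd. Its total, the highest depth given above, may therefore be overstated. This does not change RPKM, but it can affect the filter by reads and the voom fits that include this library. Intervals on depth cover counting error only. An entry was kept with 10 reads (1 RPKM where reads could not be recovered) in a number of samples equal to the size of the smaller group. Libraries were scaled by a trimmed mean of log ratios (30% and 5%). Linear models on log2(scaled RPKM + 0.1) were fitted with limma 3.58.1 (R 4.3.3), with a trended prior and two-sided Benjamini-Hochberg adjusted p-values over all entries. The pseudocount makes fold changes of low genes too small. The code was tested on simulated data.

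Groups and replicate numbers came from the titles. The 10 genes and the pathway and marker lists were chosen with earlier results of these data known. Named beside the 10 genes were up to 3 higher and 3 lower genes per list and comparison, by adjusted p. Igf1r, Pik3cb, Gyg and Gys1 were named after their values were seen, and a gene that the rule names is not reported here. Alternatives were another pseudocount, filter, scaling, 1 entry per gene, voom on reads, each cluster alone, a replicate block, and leaving out each library. The cluster as a covariate, and leaving out NC 72 h replicates 2 and 3 together, were added after the data were seen.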

Additional observations from a re-analysis of the deposited data

Results flagged for a closer look

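In 1 of the 40 sets formed by a gene and a group, a single sample lay farther from the others than Dixon's criterion at 95% allows. This was Akt1 in KD 24 h, where replicate 1 was at 50.9 scaled RPKM. Chance alone marks about 1 in 20 such sets.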

How the results depend on the processing

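Over the 10 genes and 4 comparisons, 974 of 1056 alternative values kept their direction and their side of the threshold, 18 lost it, 14 gained it and 50 changed sign, and no value that changed sign was called under either setting. Most of these values were not called in the main test and could lose no call. Akt1 lost its call in 5 of 22 alternatives at 24 h and 4 of 24 at 72 h. Pik3r1 lost it in 4 of 22 at 24 h, and Tbc1d4 in 1 of 22 and 3 of 24. Slc2a4 lost it in 1 of 22 at 24 h and 0 of 24 at 72 h. The cause was not tested in any case. For all entries, 1 entry per gene gave 2581 calls at 24 h, 2793 at 72 h, 1069 over time in NC and 49 for the interaction, since fewer entries were tested. The smaller cluster alone, with fewer samples, gave 1248, 5775, 1623 and 1713, and of the 10 genes 0 at 24 h and 1 at 72 h (Slc2a4). The cluster as a covariate gave 7186 over time in NC and 347 for the interaction, and with it, as in the larger cluster alone, 1 of the 10 genes (Slc2a1) passed over time in NC. For the interaction the larger cluster gave 876 entries, a pseudocount of 1 gave 244 and no scaling 776. Leaving out a library moved the interaction count between 56 and 189. It moved the genes called at 24 h between 2 and 5, and all entries called at 24 h between 8920 and 14086. Voom on recovered reads called 6 of the 10 genes at 24 h, adding Insr and Akt2, and 4 at 72 h, adding Irs2. Over all entries it called 12609 of 53473 at 24 h and 12561 of 54825 at 72 h.

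No pairing of the samples by replicate number was shown. Libraries with the same number had a mean correlation of deviations of -0.07 between KD and NC at 24 h and 0.03 at 72 h. Between the NC groups it was 0.03, and not all pairs exceeded 0.1. Even within a cluster the mean between groups was 0.09, so these correlations cannot decide whether the numbers pair the samples. With the replicate block, 2 of the 10 genes were called at 24 h (Slc2a4 and Tbc1d4) and 1 at 72 h (Slc2a4). Over all entries, 8591 of 53557 were called at 24 h and 8191 of 54909 at 72 h. In the same fits 2807 entries passed over time in NC and 66 for the interaction, and Akt1 over time in NC was 0.01.

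Changes of sign, in log2, were as follows. In the smaller cluster, KD against NC at 24 h was -0.52 for Irs2 and -0.33 for Slc2a1. At 72 h it was -0.14 for Irs1, 0.08 for Pik3r1 and 0.01 for Hk2. Over time in NC it was -0.13 for Akt2 and -0.02 for Tbc1d4. The interaction there was -0.04 for Irs1, 0.29 for Akt1, 0.36 for Akt2 and 0.93 for Slc2a1. In the larger cluster, Slc2a1 at 72 h was -0.3, and over time in NC Irs2 was 0.03, Slc2a4 -0.02 and Hk2 -0.05, with interactions of -0.08 for Irs2 and 0.04 for Slc2a4. Without scaling, Hk2 at 72 h was 0.16 and interactions were 0.04 for Akt1, 0.12 for Akt2, 0.11 for Slc2a1 and 0.01 for Slc2a4. With NC 72 h replicates 2 and 3 as separate samples, Slc2a1 at 72 h was 0.0. Leaving out libraries, Slc2a1 ranged from -0.02 to 0.36 at 24 h and from -0.11 to 0.19 at 72 h, and Irs1 at 72 h from -0.01 to 0.11. Without NC 72 h replicates 2 and 3, Irs1 at 72 h was -0.08, Akt1 over time in NC 0.03 and the Slc2a1 interaction 0.02. Over time in NC the ranges were -0.1 to 0.03 for Akt1, -0.05 to 0.27 for Akt2, -0.1 to 0.16 for Slc2a4 and -0.07 to 0.16 for Hk2. For the interaction they were -0.19 to 0.13 for Akt2, -0.3 to 0.08 for Slc2a1 and -0.02 to 0.23 for Hk2. Depth limits Irs2 and, in the shallowest library, Slc2a4 and Tbc1d4, which had under 10 reads there.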
